A study of Mus musculus with 12 samples.

Results

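The comparison sets tibialis anterior muscle carrying a Crtc2 expression vector against the same muscle carrying a GFP vector, both after 3 rounds of alternate day fasting (ADF). Its members are the 3 ADF Crtc2 and the 3 ADF GFP libraries, 6 of the 12 libraries of the series, taken by their labels. The tibialis anterior is a shin muscle made mainly of fast fibres. All libraries come from male C57BL/6 mice aged 13 weeks, and the design text says that muscles were transduced, with an empty GFP vector as the control. The other 6 libraries are Fed Crtc2 and Fed GFP muscle, 3 of each, from mice with food at all times. They show where the diets differ, and they also enter the main fit. The filter on low counts and the spread behind the main p-values under ADF thus draw on all 12 libraries. The labels name neither the kind of vector nor its promoter, nor the share of fibres it reached. It is also not given whether each library is 1 animal, or whether Crtc2 and GFP muscles come from the same animals. The p-values therefore rest on the differences among these libraries, which may be technical.

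Crtc2 is a coactivator that works with the transcription factor Creb1. When catecholamines or fasting hormones raise cyclic AMP, the kinases that hold Crtc2 in the cytoplasm are restrained, Crtc2 loses phosphate groups, moves to the nucleus and binds Creb1 on promoters that hold a cyclic AMP response element. In muscle this pathway is known from work on exercise and fuel stores, with Nr4a receptors, Ppargc1a and Sik1 among its classic targets. A whole muscle also holds macrophages, lymphocytes, fibroblasts, vessels and nerve, whose transcripts are read together with those of the fibres.

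The ADF libraries held between 26253970 and 34610417 counts, 27644433 to 31484693 with Crtc2 and 26253970 to 34610417 with GFP, and levels below are in CPM, the count scaled to a common library size with edgeR's TMM factors. Transcripts of fast fibres summed to between 182400 and 212400 CPM in the ADF Crtc2 libraries and between 146700 and 211500 CPM in the ADF GFP libraries, as the muscle label asks. No ADF library was a copy of another. The first principal component of the 6 libraries took 45.5% of their variance and placed the ADF Crtc2 libraries between 20.5 and 37.4 and the ADF GFP libraries between -36.6 and -20.7. Low genes were more often at 0 with Crtc2. Of the genes that averaged 1 to 3 CPM, 21.6 to 30.1% had no count in a given ADF Crtc2 library and 5.87 to 19.4% in a given ADF GFP library.

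Adding Crtc2 under ADF went mainly with lower levels. Of 16007 genes tested, 116 passed an adjusted p of 0.05 in edgeR's quasi-likelihood test with Benjamini-Hochberg adjustment (0.725%): 12 were higher (0.075%) and 104 lower (0.65%). The Crtc2 and GFP values did not overlap in any of the 116, which was so for 9.6% of all genes in the higher and 11.8% in the lower direction. Of the 104 genes that fell, 98 differed at least 2-fold and the median log2 fold change was -1.85, while the 12 that rose had a median of 0.97. Over all genes tested the median was -0.01. The calls rest on particular libraries: the count was 25 without ADF GFP replicate 3 and 25 without ADF Crtc2 replicate 1, 51 without ADF Crtc2 replicate 3, 69 without ADF GFP replicate 1, 78 without ADF Crtc2 replicate 2 and 90 without ADF GFP replicate 2. Without ADF GFP replicate 3 no gene was called higher. All 116 kept their direction in each of these fits. Scaling by library totals in place of TMM shifted the median of all genes to -0.22 and gave 2 higher and 149 lower genes, so 98.7% of calls were lower there against 89.7% with TMM.

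**Figure D1:**
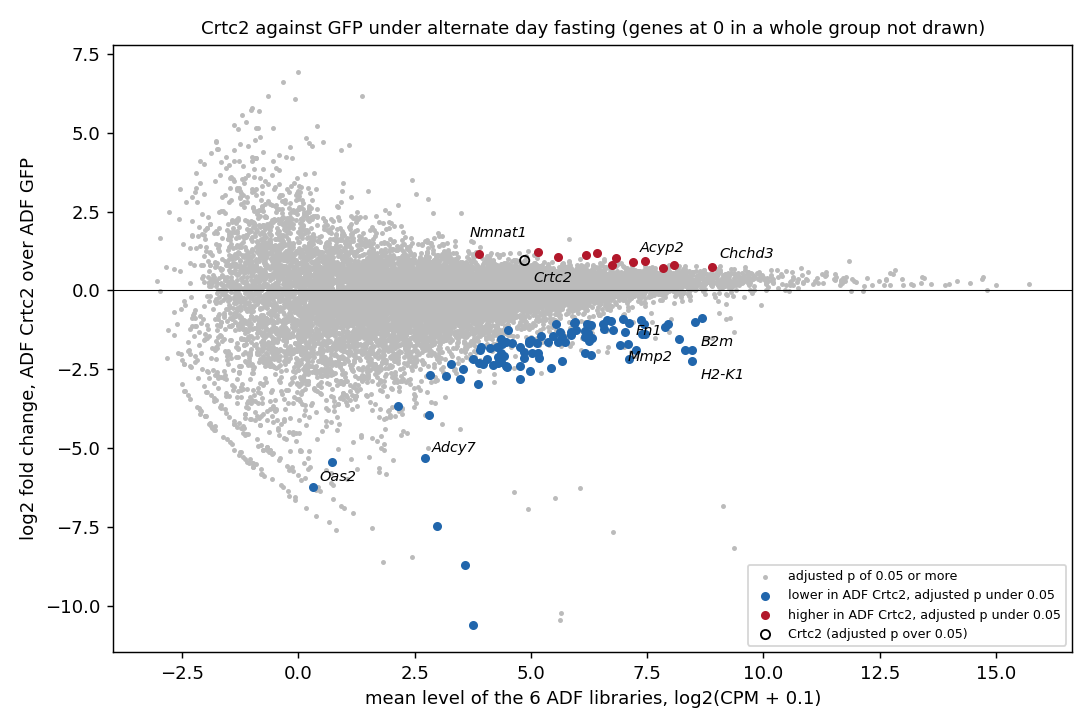
Log2 fold change of ADF Crtc2 over ADF GFP (vertical axis) against the mean level of each gene in the 6 ADF libraries (horizontal axis, log2 of CPM plus 0.1), 1 point per gene, with genes at 0 in all 3 libraries of a group not drawn. The genes that fell reach far below the cloud, while the 12 that rose stay within about 1.23 of 0, and Crtc2 itself lies among the grey points.

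Crtc2 (chromosome 3, 90254163 to 90264125 on GRCm38) had 42.8, 40.6 and 31.4 CPM in the ADF Crtc2 libraries, against 19.7, 16.1 and 23.6 CPM in the ADF GFP libraries. The groups did not overlap, and the lowest Crtc2 library lay above the highest GFP library. It differed by 0.95 ± 0.27 on the log2 scale, where ± is the SE here and in later fold changes. In edgeR's quasi-likelihood test the unadjusted p was 0.00238 and the adjusted p 0.127, so the delivered gene itself did not pass. DESeq2 gave an adjusted p of 0.0504. An exact permutation test gave p = 0.1, two-sided, the smallest that 3 against 3 libraries allow. In fed muscle the same vector gave 64.9, 58.2 and 77.9 CPM, against 29.2, 17.3 and 24.0 CPM with GFP (1.51 ± 0.28, adjusted p = 0.134 in edgeR). The gene-level counts do not separate transcripts of the vector from those of the mouse's own gene.

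Under ADF neither the partners of Crtc2 nor its classic targets moved past the threshold. Of 12 genes of the CRTC and CREB family, Crtc2 among them, 0 passed in edgeR and 0 in DESeq2, and their median log2 fold change was 0.00. At an unadjusted p under 0.05 in edgeR 1 was higher, which is Crtc2 itself and no partner, and 0 were lower. Creb1 itself had 8.16, 7.58 and 14.2 CPM in the ADF Crtc2 libraries, against 10, 10.4 and 11.4 CPM in the ADF GFP libraries, which overlap (-0.09 ± 0.43). Of 27 CREB and CRTC targets tested, 0 passed in edgeR and 0 in DESeq2, with 0 higher and 2 lower at an unadjusted p under 0.05, and the median was -0.25 (-0.38 without ADF Crtc2 replicate 1 and -0.14 without ADF Crtc2 replicate 2). Id3, an inhibitor of basic helix-loop-helix factors, had the smallest p (-0.91, adjusted p = 0.212), before the immediate early factors Egr1 (-1.40, adjusted p = 0.347) and Fos (-1.23, adjusted p = 0.448). The orphan receptor Nr4a1 had 162, 158 and 117 CPM in the ADF Crtc2 libraries, against 156, 158 and 148 CPM in the ADF GFP libraries (-0.08 ± 0.24, adjusted p = 0.993). Ppargc1a, the coactivator of mitochondrial gene expression, had 45.4, 28.9 and 51.9 CPM, against 52.2, 47.0 and 24.5 CPM with GFP (0.03 ± 0.37, adjusted p of 1). Both pairs of groups overlapped, as did those of Nr4a3 (-0.23 ± 0.91), Sik1 (-0.40 ± 0.40), Irs2 (-0.58 ± 0.82), Id1 (-0.06 ± 0.42) and Pde4d (0.36 ± 0.23). In fed muscle 3 of the 12 family genes were higher and 0 lower at an unadjusted p under 0.05 in edgeR. Their fed median was 0.55, with 10 positive values. Of the 27 targets, 6 were higher and 1 lower there by the same rule (3.17% and 2.27% of all genes). The fed median of the targets was 0.09, with 14 positive and 13 negative values.

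The gene with the smallest p and 7 others that fell belong to antigen presentation. Class I molecules show peptides on the cell surface and consist of a heavy chain from the H2 genes with the light chain beta-2 microglobulin. Class II molecules do so on professional presenting cells. Of 25 antigen presentation genes tested, 8 fell and 0 rose (0.65% of all genes fell), and all 25 had a negative log2 fold change, with a median of -1.91. B2m, the light chain (chromosome 2, 122147686 to 122153083), had the smallest p of all genes. It stood at 133, 170 and 147 CPM in the ADF Crtc2 libraries, against 534, 464 and 655 CPM in the ADF GFP libraries. The 3 Crtc2 libraries lay close together and far below every GFP library. Its log2 fold change was -1.88 ± 0.20, with an adjusted p of 0.000122 in edgeR.

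Class I heavy chains followed. H2-K1 (chromosome 17, 33996017 to 34000347) had 108, 157 and 102 CPM in the ADF Crtc2 libraries, against 654, 356 and 739 CPM in the ADF GFP libraries (-2.26 ± 0.37, adjusted p = 0.0123). H2-D1 had 122, 156 and 132 CPM, against 513, 344 and 652 CPM with GFP (-1.88 ± 0.35, adjusted p = 0.0257). In both genes ADF GFP replicate 2 was the lowest of its group and still more than any Crtc2 library. The class I genes H2-Q6 (-2.41 ± 0.43) and H2-T23 (-2.80 ± 0.58) fell as well, as did Tapbp, the chaperone tapasin that helps to load peptides (-1.32 ± 0.28). Of class II, H2-Ab1 had 49.8, 52.4 and 47.4 CPM with Crtc2, against 228, 112 and 341 CPM with GFP (-2.19 ± 0.38, adjusted p = 0.0157). Ctss, the lysosomal protease cathepsin S, also fell (-2.00 ± 0.36) and stands on the macrophage list too. The transactivators of both classes did not pass: Nlrc5, for class I, had -1.91 (adjusted p = 0.0753) and Ciita, for class II, -2.10 (adjusted p = 0.493). H2 genes have near-identical copies, so reads may be split between them and the single heavy chains are uncertain.

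Leaving out 1 library at a time, B2m kept its call throughout, with a highest adjusted p of 0.00329 without ADF Crtc2 replicate 1. The other 7 lost theirs at least once, with a highest adjusted p of 0.0561 for H2-Q6 (without ADF GFP replicate 3) to 0.241 for H2-T23 (without ADF Crtc2 replicate 1). The number of antigen presentation genes called was 2 without ADF GFP replicate 3, ADF Crtc2 replicate 1 or ADF Crtc2 replicate 3, 3 without ADF GFP replicate 1, 5 without ADF Crtc2 replicate 2 and 9 without ADF GFP replicate 2, and 15 in DESeq2. In fed muscle the median of the list was -0.79 and 22 of 25 values were negative, 7 of them with an unadjusted p under 0.05 (2.27% of all genes).

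The promoters of B2m, H2-K1 and H2-D1 are shown because Creb1 is one of the factors known to bind class I promoters, in a module whose X box holds the core of the cyclic AMP response element and whose Y box is a CCAAT element. The windows run from 250 bases before to 50 after the RefSeq start on GRCm38.p6, 5′ to 3′ on the gene's strand. Capitals mark TGACG (the core) and CCAAT on either strand, so that CGTCA and ATTGG are capitals too. Other elements, such as the interferon element described further below, are left in small letters. The coordinates are chr2:122147437-122147736, plus strand, for B2m, chr17:34000298-34000597, minus strand, for H2-K1 and chr17:35262844-35263143, plus strand, for H2-D1.
B2m: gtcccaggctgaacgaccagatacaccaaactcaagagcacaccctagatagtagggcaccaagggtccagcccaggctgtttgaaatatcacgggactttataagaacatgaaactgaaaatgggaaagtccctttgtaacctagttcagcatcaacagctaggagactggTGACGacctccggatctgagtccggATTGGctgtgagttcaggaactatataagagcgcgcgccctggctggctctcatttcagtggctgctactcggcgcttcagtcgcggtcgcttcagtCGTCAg
H2-K1: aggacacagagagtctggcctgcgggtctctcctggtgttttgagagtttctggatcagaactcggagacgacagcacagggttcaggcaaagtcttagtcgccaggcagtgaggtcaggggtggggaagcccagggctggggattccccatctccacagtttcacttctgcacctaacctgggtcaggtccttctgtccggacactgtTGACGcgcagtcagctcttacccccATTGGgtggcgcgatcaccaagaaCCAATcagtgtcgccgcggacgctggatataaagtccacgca
H2-D1: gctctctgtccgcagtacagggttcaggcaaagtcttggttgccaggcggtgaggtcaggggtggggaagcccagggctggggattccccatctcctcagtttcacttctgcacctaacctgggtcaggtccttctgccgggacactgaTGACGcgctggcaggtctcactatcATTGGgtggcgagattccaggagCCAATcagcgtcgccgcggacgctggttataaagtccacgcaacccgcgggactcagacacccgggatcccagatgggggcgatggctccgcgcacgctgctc
These windows were picked by hand and shown only if they held both motifs, so they do not stand for the list. Of the 2 RefSeq promoters of H2-K1, the first that held both motifs is shown. Among the list's other called genes, H2-Q6, H2-T23 and Tapbp had CCAAT without TGACG, and Ctss had neither. No match was found for H2-Ab1, which may lack a matched promoter. In each window shown a TGACG is followed by a CCAAT whose first base lies 25 bases downstream, counted on the gene's strand with either orientation of each motif. Counted from the RefSeq start, the pairs begin at -78 and -53 in B2m, -41 and -16 in H2-K1 and -101 and -76 in H2-D1. A promoter was matched for 11088 of the 16007 genes tested, for 74 of the 104 that fell and for 8 of the 12 that rose. TGACG stood in 33.7% of all matched promoters, in 47.4% of those of the antigen presentation list (9 of 19) and in 17.6% of the genes that fell (13 of 74). CCAAT stood in 42.2% of all, 78.9% of the antigen presentation list (15 of 19) and 40.5% of the genes that fell. The full element TGACGTCA, which contains TGACG, stood in 3.36% of all promoters, in 0 of the 74 matched genes that fell and in 1 of the 8 that rose. On the list of CREB and CRTC targets, 19 of 22 promoters held TGACG (86.4%). These are matches of letters in a window and no measure of binding.

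Interferon response genes lay lower as well. Of 37 tested, 4 fell and 0 rose (0.65% of all genes fell), and all 37 log2 fold changes were negative, with a median of -1.46. Gbp3, a guanylate-binding protein of cell defence (chromosome 3, 142560026 to 142573209), had 5.05, 6.32 and 6.19 CPM in the ADF Crtc2 libraries, against 29.0, 35.3 and 27.1 CPM in the ADF GFP libraries (-2.38 ± 0.38, adjusted p = 0.00625). Gbp2, of the same family, had 9.20, 14.7 and 11.4 CPM, against 60.4, 21.8 and 55.9 CPM with GFP (-1.97 ± 0.36, adjusted p = 0.0112), with ADF GFP replicate 2 far below the other GFP libraries. Ifitm3, a membrane protein that hinders virus entry, had 33.4, 50.2 and 41.0 CPM, against 78.6, 72.6 and 96.3 CPM with GFP (-0.99 ± 0.21, adjusted p = 0.0219). Oas2, an RNA sensor enzyme, was nearly absent, at 0, 0 and 0.071 CPM, against 2.27, 0.747 and 3.72 CPM with GFP, which is 2 counts in all with Crtc2. The ratio of GFP to Crtc2 was 87.9, with a 95% counting interval of 24.1 to 731 that covers counting error only, not the spread between libraries, and takes the 2 counts as separate fragments. In fed muscle Oas2 stood at 15.1, 8.04 and 19 CPM with Crtc2 and at 41.3, 14.5 and 12.5 CPM with GFP, above all 6 ADF libraries. Without 1 library, Gbp3 and Oas2 kept their calls throughout, Gbp2 reached an adjusted p of 0.0883 without ADF Crtc2 replicate 1 and Ifitm3 0.172 without ADF GFP replicate 3. The list count was 2 without ADF GFP replicate 1, ADF GFP replicate 3 or ADF Crtc2 replicate 1, 8 without ADF Crtc2 replicate 2 and 12 in DESeq2.

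The promoters of the pair of guanylate-binding proteins hold the core of the interferon-stimulated response element, 2 copies of GAAA with 2 bases between them, searched on either strand and shown in capitals. Both lie on the same chromosome, at chr3:142559794-142560093, plus strand, for Gbp3 and chr3:142620413-142620712, plus strand, for Gbp2.
Gbp3: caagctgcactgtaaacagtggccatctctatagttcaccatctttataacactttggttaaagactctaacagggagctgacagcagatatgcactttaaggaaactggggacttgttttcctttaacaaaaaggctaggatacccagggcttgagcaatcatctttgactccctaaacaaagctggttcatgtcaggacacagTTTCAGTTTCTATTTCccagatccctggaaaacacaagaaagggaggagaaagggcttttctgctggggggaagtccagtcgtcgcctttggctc
Gbp2: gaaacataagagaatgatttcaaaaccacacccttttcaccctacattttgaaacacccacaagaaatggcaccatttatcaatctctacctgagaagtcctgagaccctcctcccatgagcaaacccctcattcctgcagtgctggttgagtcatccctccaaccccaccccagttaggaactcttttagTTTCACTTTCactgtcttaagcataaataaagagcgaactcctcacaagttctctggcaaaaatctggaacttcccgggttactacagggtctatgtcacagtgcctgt
Gbp3 has 2 matches that overlap, in the first of its 2 RefSeq promoters to hold the element. The element stood in 3.91% of all matched promoters, in 64.3% of the interferon response list (18 of 28), in 10.8% of the genes that fell (8 of 74) and in 0 of the 8 matched genes that rose. On the antigen presentation list it stood in 26.3% (5 of 19), with the called genes B2m, H2-T23 and Ctss among them. The B2m window shown above holds it in small letters.

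**Figure D2:**
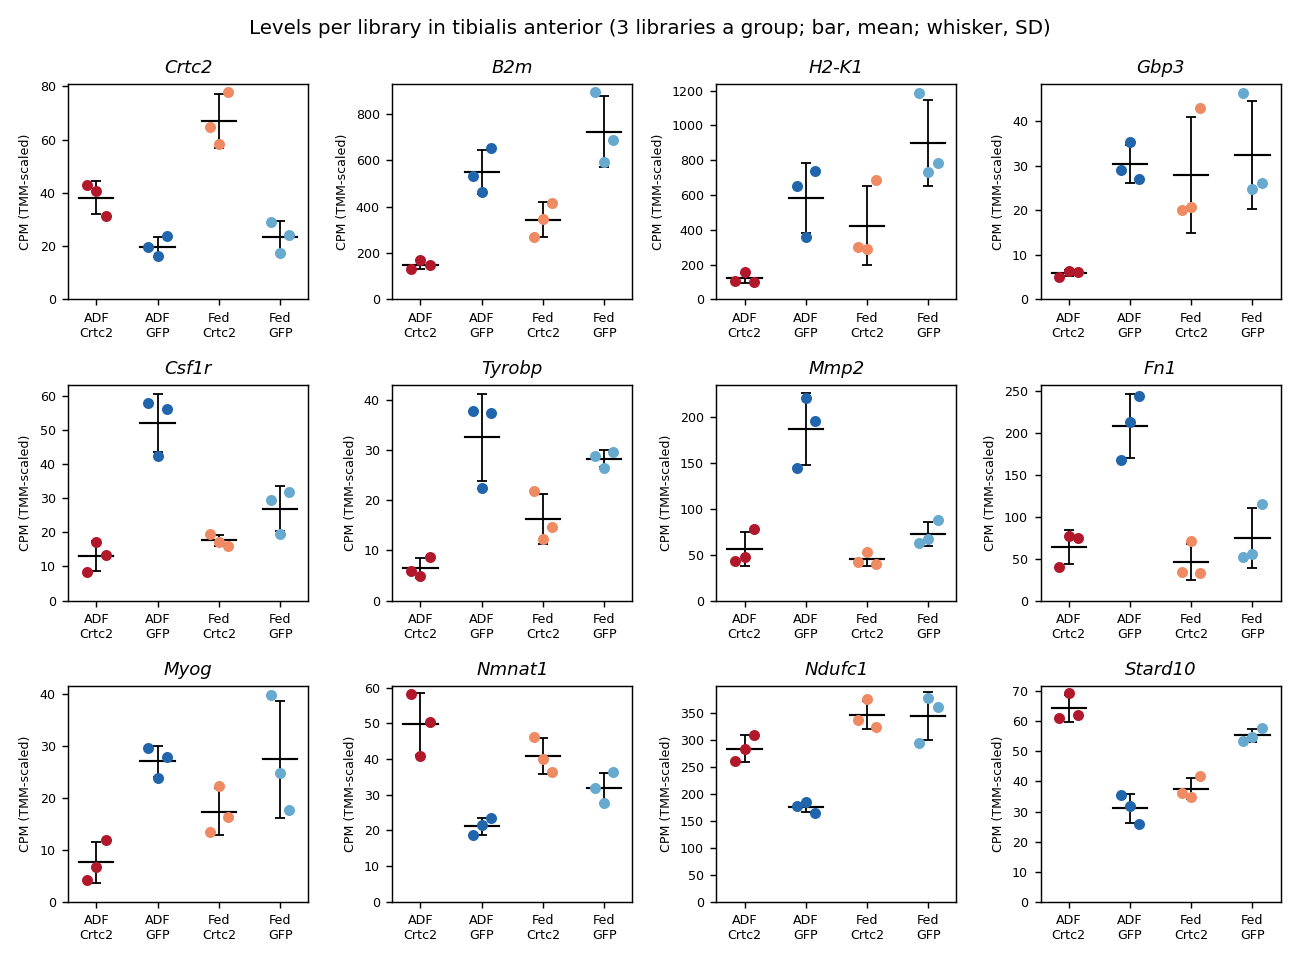
Levels of 12 genes in CPM (vertical axes from 0) in each of the 12 libraries, in the order ADF Crtc2, ADF GFP, Fed Crtc2 and Fed GFP, with points for libraries, a bar for the mean and whiskers for the SD (n = 3 each). B2m, H2-K1, Gbp3, Csf1r, Tyrobp, Mmp2, Fn1 and Myog are lower in every ADF Crtc2 library than in any ADF GFP library, and Crtc2, Nmnat1, Ndufc1 and Stard10 are higher.

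Markers of macrophages were lower in the same libraries. Of 17 tested, 8 fell and 0 rose (0.65% of all genes fell). A negative log2 fold change was found in 16 of 17 (8122 of all 16007 genes), and the median was -1.90. None of the 17 was at 0 in all 3 libraries of the ADF Crtc2 group. Csf1r, the receptor for the growth factor that macrophages depend on, had 8.51, 17.3 and 13.3 CPM in the ADF Crtc2 libraries, against 57.8, 42.3 and 56.2 CPM in the ADF GFP libraries (-2.00 ± 0.33, adjusted p = 0.00646). Tyrobp, a signalling adaptor of myeloid cells, had 5.83, 4.98 and 8.75 CPM, against 37.7, 22.5 and 37.3 CPM with GFP (-2.31 ± 0.37, adjusted p = 0.00625). Laptm5, a lysosomal membrane protein of blood cells, had 7.90, 11.4 and 20.4 CPM, against 75, 56.2 and 87.9 CPM with GFP (-2.46 ± 0.37, adjusted p = 0.005). In each of the 3 genes the groups were far apart. C1qc, a chain of complement C1q (-1.63 ± 0.30), the receptor chain Fcer1g (-2.19 ± 0.42), lysozyme Lyz2 (-1.06 ± 0.21), the lysosomal glycoprotein Cd68 (-2.00 ± 0.40) and Ctss also fell. The scavenger receptor Cd163 was the 1 member with a positive value (1.52, adjusted p = 0.811). Each of its ADF Crtc2 libraries lay above every ADF GFP library, which was so for 9.6% of all genes.

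Summed over the 17 markers, the level was 242 to 330 CPM in the ADF Crtc2 libraries and 721 to 1136 CPM in the ADF GFP libraries, against 319 to 439 CPM in the Fed Crtc2 and 555 to 612 CPM in the Fed GFP libraries. In bulk muscle, fewer cells of a type and less RNA per cell cannot be told apart, which holds for every cell type named here. The macrophage markers were lower in the same libraries as antigen presentation, interferon response and matrix genes, and their part in those results was not tested. Csf1r, Laptm5 and Tyrobp kept their calls without any 1 library, with highest adjusted p-values of 0.0469, 0.0368 and 0.0388, each without ADF Crtc2 replicate 1. The count for the list was 3 without ADF GFP replicate 3 or ADF Crtc2 replicate 1 and 5 without ADF Crtc2 replicate 2. The other markers lost their calls at least once, with a highest adjusted p of 0.153 for Lyz2 without ADF GFP replicate 3.

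T and NK cell markers were at very low levels with Crtc2 under ADF. Of 20 T and NK cell markers tested, all 20 had negative log2 fold changes. Past the threshold 1 fell (0.65% of all genes), and 16 had an unadjusted p under 0.05 (7.23% of all genes were lower by that rule). The median was -4.57, or -4.16 with genes at 0 set to the bound that 3 counts per library give, and DESeq2 called 9. Leaving out 1 library gave a fitted median of -8.44 (without ADF Crtc2 replicate 1) and -8.16 (without ADF Crtc2 replicate 3). Their sum was 7.68 to 10.7 CPM in the ADF Crtc2 libraries and 54.1 to 136 CPM in the ADF GFP libraries. In fed muscle it was 21 to 169 CPM with Crtc2 and 85.2 to 218 CPM with GFP. The markers at 0 in all 3 ADF Crtc2 libraries were 8: Cd3g, Cd8b1, Cxcr6, Gzma, Gzmb, Klrd1, Prf1 and Trbc1. Cd3g, a chain of the T cell receptor complex, was the 1 that passed, at 0 in the ADF Crtc2 libraries, against 8.10, 2.39 and 4.10 CPM in the ADF GFP libraries, at least 41.1-fold lower (adjusted p = 0.0108, and 0.0512 without ADF Crtc2 replicate 1).

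B and plasma cell markers varied widely between the control libraries. The sum over all 15 listed was 130 to 179 CPM in the ADF Crtc2 libraries, while the ADF GFP libraries had 739, 441 and 8141 CPM, the last in replicate 3. All 14 tested had negative values, and 1 passed (0.65% of all genes fell). It was the B cell receptor chain Cd79b, at 0 in the ADF Crtc2 libraries, against 0.257, 1.73 and 9.91 CPM with GFP, at least 33.5-fold lower (adjusted p = 0.0483). No marker of this list was called without ADF Crtc2 replicate 1, 2 or 3 in turn. Without ADF GFP replicate 3 the median of the list was -3.00 in place of -6.42, the bound of Cd79b 8.41-fold and its adjusted p 0.339. With genes at 0 set to their bound the median was -4.98, and DESeq2 called 7. Cd79a, Cd79b, Iglc2, Ms4a1 and Pax5 were at 0 in all 3 ADF Crtc2 libraries. In fed muscle, where all 14 values were negative too (median -4.81), the sum was 107 to 218 CPM with Crtc2 and 2147 to 3860 CPM with GFP. Immunoglobulin genes were among the steepest falls: Igha, the heavy chain of IgA, had 0.259, 0 and 0 CPM in the ADF Crtc2 libraries, against 22.5, 7.83 and 16.5 CPM with GFP (-7.49 ± 1.48, with an adjusted p of 0.102 without ADF Crtc2 replicate 3). The variable segments Ighv8-12 and Igkv3-2 were at 0 with Crtc2, at least 163-fold and 129-fold lower, and Igkv8-21 had 1 count with Crtc2, against 11.7, 2.33 and 66.8 CPM in the GFP libraries. Without replicate 3 the GFP mean of Igkv8-21 was 7.01 in place of 27 CPM, and its call was lost in 4 of 6 fits without 1 library, with a highest adjusted p of 0.219 without ADF Crtc2 replicate 3. Ighv8-12 had 9.77, 0.239 and 47.7 CPM in the GFP libraries, and without replicate 3 its bound was 42.3-fold and its adjusted p 0.223. The bound of Igkv3-2 was 70.8-fold without replicate 3, with an adjusted p of 0.178. Variable segments resemble one another and their reads are uncertain. Of all genes tested, 901 were at 0 in every ADF Crtc2 library and 312 in every ADF GFP library, and what this gap adds to the lymphocyte values was not tested.

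**Figure D3:**
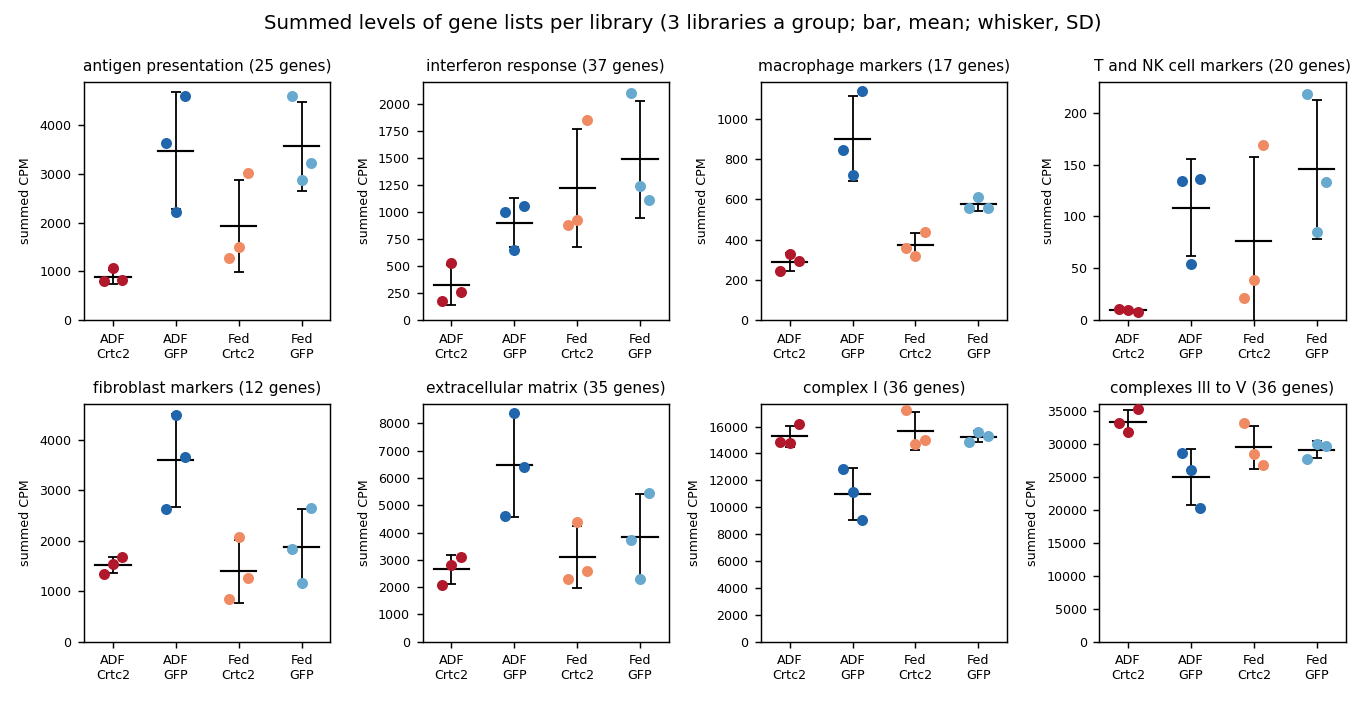
Summed levels of 8 gene lists in CPM (vertical axes from 0) in the 12 libraries, ordered ADF Crtc2, ADF GFP, Fed Crtc2 and Fed GFP, with points for libraries, a bar for the mean and whiskers for the SD (n = 3 each). The immune and matrix sums of the ADF Crtc2 libraries lie below all ADF GFP libraries, macrophage markers at 242 to 330 against 721 to 1136 CPM, and the sums of complex I and of complexes III to V lie above them.

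Genes of the extracellular matrix lay lower as well. Of 35 tested, 8 fell and 0 rose (0.65% of all genes fell), all 35 values were negative, and the median log2 fold change was -1.35. Mmp2, a gelatinase that cuts basement membrane collagen, had 43.0, 47.9 and 77.7 CPM in the ADF Crtc2 libraries, against 144, 220 and 195 CPM in the ADF GFP libraries (-1.73 ± 0.25, adjusted p = 0.00312). Fn1, fibronectin, had 40.6, 77.4 and 74.8 CPM, against 168, 213 and 244 CPM with GFP (-1.70 ± 0.36, adjusted p = 0.0434). Bgn, the small proteoglycan biglycan, had 75.4, 102 and 98.9 CPM, against 216, 250 and 263 CPM with GFP (-1.40 ± 0.23, adjusted p = 0.00646). None of these groups overlapped. The basement membrane genes Nid1 (-1.52 ± 0.28), Hspg2 for perlecan (-0.93 ± 0.20), Lamb1 (-1.62 ± 0.38) and Lamc1 (-1.06 ± 0.25) and the protease inhibitor Timp2 (-1.05 ± 0.23) completed the 8. Col1a1, the main fibrillar collagen, had 189, 241 and 240 CPM, against 417, 812 and 724 CPM with GFP, and did not pass (-1.54 ± 0.45, adjusted p = 0.21).

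Mmp2 and Bgn kept their calls without any 1 library, while Fn1 reached 0.182 without ADF Crtc2 replicate 1 and Lamb1 0.226 without ADF GFP replicate 2. The matrix count was 2 without ADF GFP replicate 3 or ADF Crtc2 replicate 1, 3 without ADF GFP replicate 2 or ADF Crtc2 replicate 2, 4 without ADF Crtc2 replicate 3, and 19 in DESeq2. Fibroblast markers lay lower beside the matrix genes: all 12 tested were negative (median -1.08) and 1 passed (0.65% of all genes fell). It was the microfibril gene Mfap5 (-1.63 ± 0.38, adjusted p = 0.0475, lost in each fit without 1 library, 0.201 without ADF Crtc2 replicate 1). DESeq2 called 4 of the fibroblast markers. Their sum was 1340 to 1671 CPM in the ADF Crtc2 libraries and 2636 to 4481 CPM in the ADF GFP libraries, against 854 to 2072 CPM in the Fed Crtc2 and 1165 to 2648 CPM in the Fed GFP libraries, with no marker at 0. Their part in the matrix result was not tested. The summed matrix list stood at 2065 to 3110 CPM in the ADF Crtc2 libraries and 4597 to 8390 CPM in the ADF GFP libraries. In fed muscle it was 2298 to 4404 CPM with Crtc2 and 2306 to 5465 CPM with GFP.

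Among markers of other cells in muscle, endothelial and pericyte genes had a median of -0.44 (22 tested, 0 called, 2 higher and 5 lower at an unadjusted p under 0.05; DESeq2 1 higher and 2 lower), which was -0.18 without ADF GFP replicate 2. Their sum overlapped between groups, at 1256 to 1465 CPM with Crtc2 and 1305 to 1664 CPM with GFP under ADF. Satellite cell genes had a median of -0.98 (10 tested, 0 called in edgeR or DESeq2, 0 at an unadjusted p under 0.05), or -0.64 with genes at 0 at their bound, -0.61 without ADF GFP replicate 3 and -0.03 over those of at least 10 CPM. Their sum overlapped too, at 6337 to 7296 CPM with Crtc2 and 5008 to 7391 CPM with GFP. Adipocyte genes had a median of -0.01 (-0.41 without ADF Crtc2 replicate 1), with 11 tested, 0 called in edgeR or DESeq2 and 0 at an unadjusted p under 0.05. Summed over all 13 listed, the level overlapped, at 3937 to 6184 CPM with Crtc2 and 4296 to 5987 CPM with GFP. Schwann cell and nerve genes had a median of 1.21 (9 tested, 0 called, 2 higher at an unadjusted p under 0.05; DESeq2 1), which was 0.53 without ADF Crtc2 replicate 2. In fed muscle all 9 were negative, with a median of -0.69. The sum over all 12 Schwann cell and nerve genes listed was 120 to 259 CPM with Crtc2 and 59.7 to 99.6 CPM with GFP under ADF, with Nefh and Nefl at 0 in the Crtc2 libraries.

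Of 23 genes of muscle regeneration and denervation tested, 3 fell and 0 rose (0.65% of all genes fell), 22 values were negative and the median was -1.16. Their summed level overlapped between groups, at 921 to 1711 CPM in the ADF Crtc2 libraries and 1258 to 2023 CPM in the ADF GFP libraries. Myog, the factor that drives myoblasts into differentiation, had 4.23, 6.71 and 11.9 CPM in the ADF Crtc2 libraries, against 29.6, 23.8 and 27.8 CPM in the ADF GFP libraries (-1.83 ± 0.42, adjusted p = 0.0409). Mymk, the membrane protein that fuses myoblasts, had 2.85, 1.34 and 4.09 CPM, against 22.7, 11.8 and 23.4 CPM with GFP (-2.80 ± 0.56, adjusted p = 0.0157). Myl4, the embryonic light chain of myosin, had 26.3, 36.2 and 32.5 CPM, against 86.2, 55.4 and 112 CPM with GFP (-1.41 ± 0.26, adjusted p = 0.0113). The groups of these 3 genes did not overlap. The embryonic myosin Myh3 did not pass (-1.37 ± 0.49, adjusted p = 0.319). The count of 3 was 0 without ADF GFP replicate 3 or ADF Crtc2 replicate 1, 1 without ADF GFP replicate 1 or ADF Crtc2 replicate 2, and 2 without ADF GFP replicate 2, with Myog at an adjusted p of 0.206 without ADF Crtc2 replicate 1. In fed muscle the list's median was -0.12, with 14 of 23 values negative. Myl4 was lower there too, without overlap (-1.10, unadjusted p = 0.000323, adjusted p = 0.553).

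Of 12 slow fibre genes, 2 fell (0.65% of all genes fell). Tnni1, the slow troponin I, had 12, 19 and 13.5 CPM in the ADF Crtc2 libraries, against 45.1, 34.4 and 62.1 CPM in the ADF GFP libraries (-1.67 ± 0.33, adjusted p = 0.0153). Tnnt1, the slow troponin T, had 12.4, 8.33 and 13.9 CPM, against 40.1, 34.9 and 34.8 CPM with GFP (-1.66 ± 0.38, adjusted p = 0.0454). Slow myosin Myh7 overlapped between the groups (-1.0 ± 0.85, adjusted p = 0.781). The list's median was -0.61, while its summed level was 12470 to 15640 CPM with Crtc2 and 8139 to 12720 CPM with GFP. In fed muscle the list's median was -0.51, with 9 of 12 values negative. At an unadjusted p under 0.05 in edgeR, 3 were lower and 1 higher there. Tnni1 was lower in fed muscle too, without overlap (-1.155, unadjusted p = 0.00174, adjusted p = 0.877). Tnni1 lost its call without ADF GFP replicate 3 (adjusted p = 0.137), ADF Crtc2 replicate 1 or ADF Crtc2 replicate 3, and Tnnt1 in each of the 6 fits without 1 library (0.186 without ADF Crtc2 replicate 1). The fast myosin Myh4 had a log2 fold change of 0.01 ± 0.37 (adjusted p of 1).

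The rule named 11 further large falls. Cybb, the oxidase subunit of phagocytes (-2.44 ± 0.51), Fcgr2b, an inhibitory antibody receptor (-2.67 ± 0.63), Cd52, a surface peptide of leukocytes (-2.98 ± 0.53), Il2rg, the shared chain of interleukin receptors (-3.67 ± 0.79), Cxcl16, a chemokine (-3.96 ± 0.86), Hcls1, a cytoskeletal protein of blood cells (-2.49 ± 0.58), and Lcp1, the leukocyte plastin (-2.54 ± 0.46), all fell. Ly6c2, a surface marker of inflammatory monocytes, had 0.043, 0.079 and 0.036 CPM in the ADF Crtc2 libraries, against 12.5, 3.59 and 55.4 CPM with GFP (-8.71 ± 1.68, adjusted p = 0.0393). Adcy7, an adenylyl cyclase abundant in blood cells and the 1 of 30 genes of cAMP and PKA signalling that passed, had 0.259, 0 and 0.676 CPM, against 13.8, 8.58 and 15.6 CPM with GFP (-5.31 ± 0.91, adjusted p = 0.00789, and 0.0512 without ADF Crtc2 replicate 1). Mov10, an RNA helicase, was at 0 with Crtc2, against 5.70, 2.78 and 4.70 CPM with GFP, at least 37.1-fold lower, and kept its call without any 1 library. Sh3pxd2b, an adaptor of invasive membrane structures, fell by 2.71 ± 0.61 on the log2 scale under ADF and had a log2 fold change of 1.12 in fed muscle (unadjusted p = 0.067). Each of these genes besides Mov10 lost its call without at least 1 library, with a highest adjusted p of 0.329 for Fcgr2b without ADF GFP replicate 3.

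Igfbp5, a binding protein of insulin-like growth factors, fell too, with 108, 186 and 179 CPM in the ADF Crtc2 libraries, against 262, 348 and 389 CPM in the ADF GFP libraries (-1.08 ± 0.24, adjusted p = 0.0351, and 0.201 without ADF Crtc2 replicate 1). So did Ucp2, a mitochondrial carrier common in immune cells, with 24.8, 49.8 and 38 CPM, against 115, 85.1 and 140 CPM with GFP (-1.60 ± 0.32, adjusted p = 0.0208, and 0.154 without ADF Crtc2 replicate 1). Ucp3, its relative in muscle fibres, had 498, 400 and 465 CPM, against 316, 317 and 261 CPM with GFP, and did not pass (0.61 ± 0.30, adjusted p = 0.456). Of the 104 genes that fell, 38 stood on a list and 66 on none. Among these, chosen after their values were seen, were the lipoprotein Apoe, with 143, 151 and 148 CPM in the ADF Crtc2 libraries, against 414, 345 and 542 CPM with GFP (-1.56 ± 0.20, adjusted p = 0.00105), the matrix protein Thbs4 (-1.38 ± 0.22), the cytoskeletal genes Vim (-1.17 ± 0.23) and Actb (-1.02 ± 0.21), and the iron store Ftl1 (-0.92 ± 0.20).

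**Figure D4:**
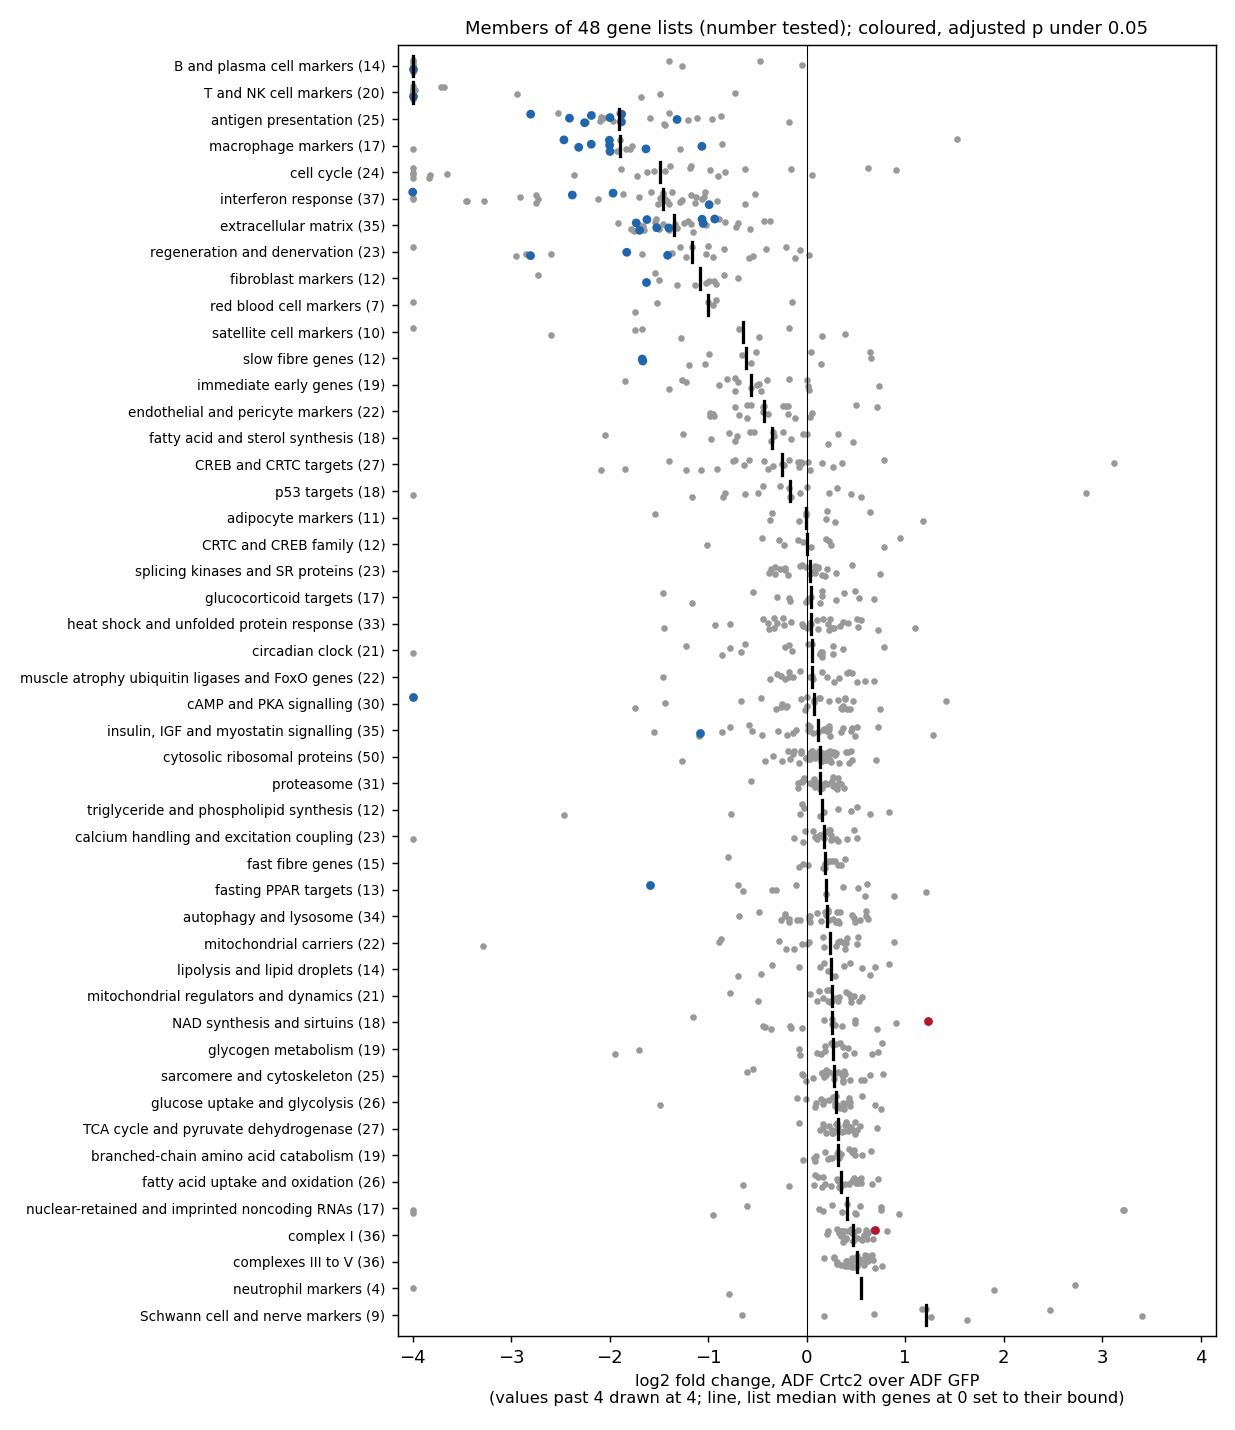
Log2 fold change of ADF Crtc2 over ADF GFP (horizontal axis, values past 4 drawn at 4) for the members of 48 gene lists (rows, with the number tested), with a line at each median and colour where the adjusted p was under 0.05. Lymphocyte, antigen presentation, macrophage, interferon and matrix lists lie at the top with blue points, and all points of complex I and of complexes III to V lie right of 0 with 1 red point between them.

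In the other direction, the nuclear genes of the respiratory chain had small positive log2 fold changes, of which 1 passed the threshold. Complex I takes electrons from NADH, and complexes III to V pass them to oxygen and make ATP. Of 36 complex I genes tested, all 36 had a positive log2 fold change, from 0.21 to 0.81 with a median of 0.47. Of these, 1 passed in edgeR (0.075% of all genes were called higher) and 11 in DESeq2, 26 had an unadjusted p under 0.05 (4.07% of all genes), and 27 had groups that did not overlap (9.6% of all genes). Of 36 genes of complexes III to V, all 36 were positive too, from 0.18 to 0.77 with a median of 0.51. There 0 passed in edgeR and 14 in DESeq2, with 30 at an unadjusted p under 0.05 and 27 without overlap. The gene that passed was Ndufc1, a small subunit of complex I (chromosome 3, 51404677 to 51408988), with 260, 282 and 309 CPM in the ADF Crtc2 libraries, against 176, 184 and 165 CPM in the ADF GFP libraries (0.70 ± 0.16, adjusted p = 0.0492). Uqcrq, of complex III, had 649, 599 and 791 CPM, against 476, 409 and 315 CPM with GFP, and just missed (0.77 ± 0.18, adjusted p = 0.055). Ndufa4 (0.67 ± 0.16, adjusted p = 0.0636) and Mpc2, a subunit of the mitochondrial pyruvate carrier (0.69 ± 0.17, adjusted p = 0.0623), also fell short of the threshold.

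The summed level of complex I was 14760 to 16160 CPM in the ADF Crtc2 libraries and 9031 to 12880 CPM in the ADF GFP libraries, against 14730 to 17260 CPM in the Fed Crtc2 and 14830 to 15620 CPM in the Fed GFP libraries. For complexes III to V it was 31820 to 35360 CPM in the ADF Crtc2 and 20290 to 28640 CPM in the ADF GFP libraries, against 26840 to 33230 CPM in the Fed Crtc2 and 27770 to 30010 CPM in the Fed GFP libraries. The ADF GFP libraries were thus the lowest of the 4 groups for complex I, and replicate 3 was the lowest of them. In fed muscle the median was 0.04 for complex I and 0.01 for complexes III to V. With library totals the ADF median was 0.28 for complex I and 0.31 for complexes III to V, where that of all genes was -0.22. Without ADF GFP replicate 3 it was 0.35 for complex I and 0.38 for complexes III to V, and Ndufc1 lost its call in each fit without 1 library (adjusted p = 0.248 without ADF GFP replicate 3). These genes are short, with a median exon length of 1532 bases for complex I and 1794 bases for complexes III to V, against 3929 bases over all genes tested. Fold changes were lower in longer genes across the 7788 genes of at least 10 CPM (Spearman's rho -0.19, and 0.031 in fed muscle), with a median of 0.20 over the 1947 shortest and -0.01 over the 1947 longest. The part of length in the result was not tested.

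Lists of fuel use lay on the same side with smaller values. Of 27 genes of the TCA cycle and pyruvate dehydrogenase, 26 were positive (median 0.31, 0 called in edgeR, 11 higher at an unadjusted p under 0.05, 3 in DESeq2), and of 26 genes of fatty acid uptake and oxidation 24 were positive (median 0.35, 0 called, 9 at an unadjusted p under 0.05, 2 in DESeq2). Branched-chain amino acid catabolism had a median of 0.32, glycolysis 0.30 (0.46 without ADF GFP replicate 1) and glycogen metabolism 0.27. The shift was not particular to fuel genes. Sarcomere and cytoskeleton genes had a median of 0.27 (20 of 25 positive), fast fibre genes 0.19 (12 of 15) and calcium handling genes 0.17 (19 of 23). Each of these lists had 0 called in edgeR, and the slow fibre list lay on the other side, at -0.61. Lpl, the lipase that frees fatty acids from lipoproteins, had 714, 522 and 655 CPM in the ADF Crtc2 libraries, against 434, 471 and 290 CPM in the ADF GFP libraries (0.66 ± 0.20, adjusted p = 0.163). Pdk4, which shuts off pyruvate dehydrogenase in fasting, had 3398, 2897 and 3044 CPM, against 1801, 2310 and 2067 CPM with GFP (0.60 ± 0.46, adjusted p = 0.747). Neither pair of groups overlapped and neither gene passed. The groups did overlap for the lipase Pnpla2 (0.18 ± 0.19), the glycogen synthase Gys1 (0.10 ± 0.17), the ubiquitin ligases Fbxo32 (0.33 ± 0.26) and Trim63 (0.43 ± 0.32), Cpt1b (0.08 ± 0.52), Angptl4 (-0.35 ± 1.15) and Igf1 (-1.55 ± 0.85).

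Of the 12 genes that rose, 5 are predicted or unnamed, and the 7 named ones were modest in size. Nmnat1, which makes NAD in the nucleus (chromosome 4, 149467572 to 149485202), had 58.2, 40.9 and 50.3 CPM in the ADF Crtc2 libraries, against 18.6, 21.6 and 23.4 CPM in the ADF GFP libraries (1.23 ± 0.26, adjusted p = 0.0258). Acyp2, the muscle acylphosphatase, had 205, 191 and 172 CPM, against 104, 98.3 and 104 CPM with GFP (0.89 ± 0.17, adjusted p = 0.0152). Every Crtc2 library lay far above the GFP libraries in both. Chchd3, which shapes mitochondrial cristae, had 663, 558 and 575 CPM, against 409, 343 and 315 CPM with GFP (0.75 ± 0.17, adjusted p = 0.0454). Ggnbp1 had 24.4, 17.7 and 18.3 CPM, against 10.8, 8.25 and 8.44 CPM with GFP (1.14 ± 0.25, adjusted p = 0.0368), and lay at 60.3 to 87.0 CPM in the 6 fed libraries. Each of the 7 lost its call without at least 1 library, Acyp2 in 4 of 6 fits and Ggnbp1, Ndufc1 and Stard10 in 6 of 6, with highest adjusted p-values from 0.11 for Acyp2 without ADF Crtc2 replicate 1 to 0.251 for Chchd3 without ADF GFP replicate 3.

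Mlf1, a protein first known from myeloid leukaemia, had 308, 405 and 319 CPM in the ADF Crtc2 libraries, against 166, 247 and 171 CPM in the ADF GFP libraries (0.82 ± 0.19, adjusted p = 0.0434, and 0.24 without ADF GFP replicate 3). It is shown here because its promoter (chr3:67373847-67374146, plus strand, GRCm38.p6) holds the full cyclic AMP response element TGACGTCA, in capitals. The element reads the same on both strands. Among the 8 matched genes that rose and the 74 that fell, no other promoter held it, against 3.36% of all matched promoters. The promoter was thus picked for its motif, and this count does not set the called genes apart from other genes.
Mlf1: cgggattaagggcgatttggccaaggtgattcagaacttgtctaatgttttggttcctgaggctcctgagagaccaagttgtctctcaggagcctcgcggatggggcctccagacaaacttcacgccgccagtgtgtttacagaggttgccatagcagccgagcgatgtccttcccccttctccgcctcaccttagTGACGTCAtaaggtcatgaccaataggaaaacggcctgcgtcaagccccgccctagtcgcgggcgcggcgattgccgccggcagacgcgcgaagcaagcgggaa
Whether Creb1 or Crtc2 was bound there was not measured.

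Stard10, a phospholipid transfer protein (chromosome 7, 101317086 to 101346626), lay on opposite sides of its control in the diets. Under ADF it had 61.2, 69.6 and 62.0 CPM with Crtc2, against 35.4, 31.8 and 26 CPM with GFP (1.05 ± 0.23, adjusted p = 0.0298). In fed muscle it had 36.2, 35.0 and 41.7 CPM with Crtc2, against 53.3, 54.8 and 57.8 CPM with GFP (-0.56 ± 0.23, unadjusted p = 0.0222, adjusted p = 0.877). The groups overlapped in neither diet, and the difference between the diets had an unadjusted p of 5.55e-05 and an adjusted p of 0.174.

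Of the 5 predicted or unnamed genes that rose, 3 are nuclear pseudogenes of mitochondrial genes. The table holds 0 genes of the mitochondrial genome itself. Gm28661, identical over its whole length to mt-Co2, had 99.2, 97.7 and 100.1 CPM in the ADF Crtc2 libraries, against 43.8, 49.6 and 43.8 CPM in the ADF GFP libraries (1.11 ± 0.19, adjusted p = 0.00789). Gm29216 (1.19 ± 0.22) and Gm13340 (1.02 ± 0.20), at 99.8% and 97.6% identity to mt-Co1, rose as well. In all, 11 tested pseudogenes matched a mitochondrial transcript at 95% identity or more over at least 80% of their length, a set chosen after values were seen: all 11 values were positive, from 0.74 to 2.89 with a median of 1.11, and 3 passed. Their fed median was -0.21. Reads from a copy identical to a mitochondrial gene cannot be told apart from reads of that gene. The least alike copy, at 95.2% identity, and others below 100% differ at some bases, so part of their reads may be told apart. The source of these counts is thus uncertain.

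Most genes that fell under ADF were also lower with Crtc2 in fed muscle, while those that rose lay on both sides of 0 there. The fed and ADF comparisons share no library. In fed muscle 0 genes passed in edgeR, where 508 were higher (3.17%) and 363 lower at an unadjusted p under 0.05, the smallest adjusted p was 0.134 and DESeq2 called 64. Of the 104 genes that fell under ADF, 91 also had a negative log2 fold change in fed muscle (49.1% of all genes), 27 of them with an unadjusted p under 0.05 (2.27% of all genes), and the fed median was -0.52. For 25 of the 104 the fed groups did not overlap in that direction (3.84% of all genes). B2m had 269, 348 and 418 CPM in the Fed Crtc2 libraries, against 894, 592 and 688 CPM in the Fed GFP libraries (-1.07, unadjusted p = 2.5e-05). Of the 12 genes that rose under ADF, 5 had a positive value in fed muscle (50.6% of all genes), with a median of -0.04. Across the 7789 genes of at least 10 CPM, log2 fold changes in the diets had a Pearson correlation of 0.44 and a Spearman correlation of 0.11. In the diet by vector interaction 0 genes passed in edgeR, with 430 higher (2.69%) and 810 lower (5.06%) at an unadjusted p under 0.05, a smallest adjusted p of 0.174 and 111 calls in DESeq2, so a larger response under ADF than in fed muscle was not shown for any single gene by edgeR.

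**Figure D5:**
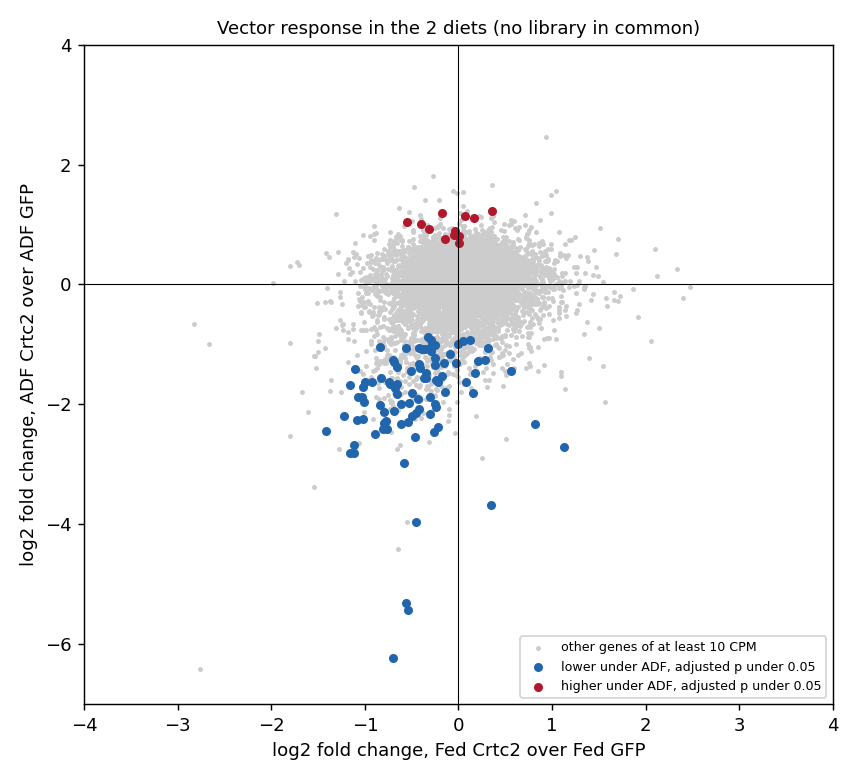
Log2 fold change of Crtc2 over GFP under ADF (vertical axis) against that in fed muscle (horizontal axis), 1 point per gene, with called genes in colour and other genes of at least 10 CPM in grey. Most genes that fell under ADF lie left of 0 (91 of 104 had a negative fed value), while the 12 that rose lie on both sides. The 8 at 0 in every ADF Crtc2 library and 4 that lie outside the axes are not drawn.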

How the data were processed

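The authors deposited unnormalized counts of reads for 22607 Ensembl genes in 12 libraries. The submitters' processing notes name GRCm38, mm10, DESeq2 1.18.1, Subread 1.6.1 with featureCounts, SAMtools 1.7 and HISAT2 2.0.5 without their roles, and the strand setting is not given in the sources used here. The labels' protocols name an NEBNext and a TruSeq stranded kit without assigning them to libraries. In each library 68.9 to 74.7% of counts from 2 to 21 were even, so some fragments may be counted more than once.

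The 12 libraries were fitted together in edgeR 4.0.16 (R 4.3.3) as 4 group means, with TMM scaling, filterByExpr (16007 genes kept), a robust quasi-likelihood fit and Benjamini-Hochberg adjustment over all genes tested, with a threshold of 0.05. Contrasts were Crtc2 against GFP under ADF and in fed muscle, and their difference. Every adjusted p in the text is from edgeR unless DESeq2 1.42.0 is named. SE is the log2 fold change over the square root of F. A gene at 0 in a group was set to 3 counts per library (0.107 to 0.13 CPM in the ADF Crtc2 libraries), which covers counting error only. Gene positions are from GENCODE release 21 (22582 genes found) and promoters from RefSeq.

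The comparison, whose 6 libraries follow from the labels, and the 48 gene lists (988 of 1010 listed genes tested) were chosen with earlier results of these data known. Named genes are Crtc2, the 20 largest falls and rises past the threshold without overlap and with at least 2 CPM (7 rises qualified, so the 10 with the smallest p were taken), up to 4 members of each list and all that passed, and 20 fixed genes. Fits were repeated with other scalings and filters, DESeq2, halved counts, a replicate block, the 6 libraries of 1 diet, and without each library. The test was tried on simulated counts.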

Additional observations from a re-analysis of the deposited data

Results flagged for a closer look

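Stard10 differed from its control in opposite directions under the diets, with every Crtc2 library above every GFP library under ADF and below every GFP library in fed muscle. The difference of the log2 fold changes, ADF minus fed, was 1.6 ± 0.32, with an unadjusted p of 5.55e-05 and an adjusted p of 0.174 in edgeR, so it did not pass over all genes. Under ADF the level was 64.3 ± 4.60 CPM with Crtc2 and 31.1 ± 4.77 CPM with GFP, and in fed muscle 37.6 ± 3.57 CPM with Crtc2 and 55.3 ± 2.28 CPM with GFP (SD, n = 3 each).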

How the results depend on the processing

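Under ADF the main test called 116 genes. It called 385 with no filter on low counts, 300 with only the 6 ADF libraries and 556 with DESeq2, and 25 to 90 without 1 library, while library totals (151), RLE size factors (118), a filter at 10 CPM (142, 23 of them higher, so 83.8% lower against 89.7%) and halved counts (124) stayed within 1.5 times. Of the calls, 80.3% were lower with only the ADF libraries and 77.3% in DESeq2. All of the 116 genes that an alternative tested kept their direction in it, and DESeq2 called all 116. In fed muscle the 0 calls became 58 with no filter, 7 with only the 6 fed libraries, 64 with DESeq2 and 0 to 18 without 1 library, and those of the interaction became 67 with no filter, 111 with DESeq2 and 0 to 3 without 1 library. The cause of these moves was not tested. The replicate block gave 88 calls under ADF (72 of the 116, 95.5% lower) and 6 in fed muscle. By the labels it is unknown whether Crtc2 and GFP muscles share animals, and the numbers were not taken to pair the samples, since same-numbered libraries deviated from their group means with correlations of -0.009 to 0.094 under ADF and -0.123 to -0.003 in fed muscle, and differently numbered ones reached 0.131 under ADF and 0.186 in fed muscle. Crtc2 stayed short of the threshold in every alternative, with a log2 fold change of 0.82 to 1.09 without 1 library. The neutrophil list gave no median with the filter at 10 CPM. With 3 libraries a group, genes under about 3 CPM are limited by values of 0.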

Other observations

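Several lists of muscle biology that the text has not described had medians from 0.04 to 0.20 under ADF, with -0.01 over all genes. Proteasome genes had a median log2 fold change of 0.14 (24 of 31 tested were positive), cytosolic ribosomal proteins 0.14 (37 of 50) and autophagy and lysosome genes 0.20 (25 of 34). Genes of muscle atrophy and FoxO had 0.06 (13 of 22), clock genes 0.05 (12 of 21), glucocorticoid targets 0.04 (10 of 17), and heat shock and unfolded protein response genes 0.05 (19 of 33). Each had 0 calls in edgeR, with 0 to 4 members higher and 0 to 2 lower at an unadjusted p under 0.05, and DESeq2 called at most 1 in each. With library totals the medians of the proteasome, ribosomal, atrophy, clock, glucocorticoid and heat shock lists were negative, from -0.06 to -0.18, where that of all genes was -0.22, and without 1 library the medians of these lists lay between -0.13 and 0.27.

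Cell cycle genes had a median of -1.49 (-0.93 over those of at least 10 CPM), with 21 of 24 negative, 0 called in edgeR, 8 lower at an unadjusted p under 0.05 and 4 called in DESeq2. Their sum was 67 to 86.3 CPM in the ADF Crtc2 libraries and 148 to 174 CPM in the ADF GFP libraries, without overlap, against 74.9 to 193 CPM in the Fed Crtc2 and 117 to 262 CPM in the Fed GFP libraries. Mki67, a marker of dividing cells, had 0, 0.237 and 1.46 CPM in the ADF Crtc2 libraries, against 0.600, 8.46 and 15.4 CPM with GFP, which overlap (adjusted p = 0.255). Immediate early genes had a median of -0.57 and fatty acid and sterol synthesis -0.35, with 0 called in edgeR and in DESeq2 and, at an unadjusted p under 0.05, 1 immediate early gene lower and 1 synthesis gene in each direction. Of 10 neutrophil markers, 4 were tested and 8 were among the genes counted. Summed over these 8, the level was 7.38 to 16.1 CPM with Crtc2 and 2.78 to 9.18 CPM with GFP under ADF, which overlap. Red blood cell markers summed to 69.9 to 178 CPM with Crtc2 and 121 to 397 CPM with GFP under ADF, which overlap.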
